A study of Mus musculus with 9 samples.

Results

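Spheres grown from mouse dental papilla cells were compared with primary dental papilla cells across all genes. The comparison took the 3 libraries titled spheres and the 3 titled primary cells, chosen by their titles alone, out of 9 RNA-seq libraries in the series. The other 3 libraries are monolayer cultures, which entered the filter on low counts, the scaling and the estimate of the spread. All cells are labelled as dental papilla of C57BL/6 mice, with no transgene or agent named, and the ages and numbers of animals are not in the labels. Per the labels' protocols, passage 2 cells went onto ultra-low attachment plates to form spheres, in basal EpiCM medium with methylcellulose, and were grown for 8 days. The primary group carries no growth label, and the design text speaks of passage 2 cells where the sample titles say primary cells. Growth in suspension, medium, passage and time in culture may therefore differ together between the groups, and their parts in any difference cannot be told apart. The labels do not say that libraries came from separate animals or cultures, so the spread behind every p-value may be technical.

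The dental papilla is the neural crest-derived mesenchyme of the tooth germ. Its outer cells leave the cell cycle, become odontoblasts and secrete dentin, a collagen I matrix that mineralizes with the help of acidic phosphoproteins, while the inner cells form the pulp. Odontoblasts share much of this program with the osteoblasts and osteocytes of bone.

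The primary libraries held 44620255, 47570939 and 46788004 counts in genes, in the order of their replicate numbers, and the sphere libraries held 35957376, 47798401 and 50823554. The first principal component of log-CPM over these 6 libraries held 94.1% of the variance and parted the groups, and the second held 2% and set sphere library 1 (-30.37) apart from sphere libraries 2 and 3 (14.77 and 15.74). Levels are given as CPM, TMM-scaled counts-per-million values, and a series of 3 values follows libraries 1 to 3. CPM is not divided by gene length, so a level can be compared between groups but not between genes. With no count over the 3 libraries of a group, the upper limit is 3 counts over that group, or 0.0202 CPM in primary cells and 0.0208 CPM in spheres, which covers counting error only. A lower level in bulk RNA can come from fewer cells of a type or from less RNA per cell, and these cannot be told apart.

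Most of the transcriptome differed between spheres and primary cells. Of 15675 genes tested with edgeR's quasi-likelihood test, 6102 (38.9%) were higher and 6370 (40.6%) were lower in spheres at a Benjamini-Hochberg adjusted p of 0.05, and 3203 did not pass. Tested against a change of 2-fold, 1766 (11.3%) were higher and 2582 (16.5%) lower. The median absolute log2 change was 0.62, and the median signed change was -0.02, which the TMM scaling sets near 0. The fitted change went past 10-fold in 524 genes that were higher and 748 that were lower, and past 100-fold in 127 and 128. The ranges of library values were separate in 81.2% of genes. Separate groups are therefore the usual case, and where they are remarked on below they do not mark a gene out. Of the 15675 genes, 79.6% passed in either direction. With so large a share of genes called, a count of called members of a gene list says little by itself, and the size and direction of the changes are given with each count. Every such count below, also where this is not repeated, stands against 38.9% of all genes tested higher and 40.6% lower. Each rise or fall named below passed the edgeR test at an adjusted p of 0.05, a fold is a ratio of mean CPM, and ± gives the SD over n = 3 libraries.

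**Figure D1:**
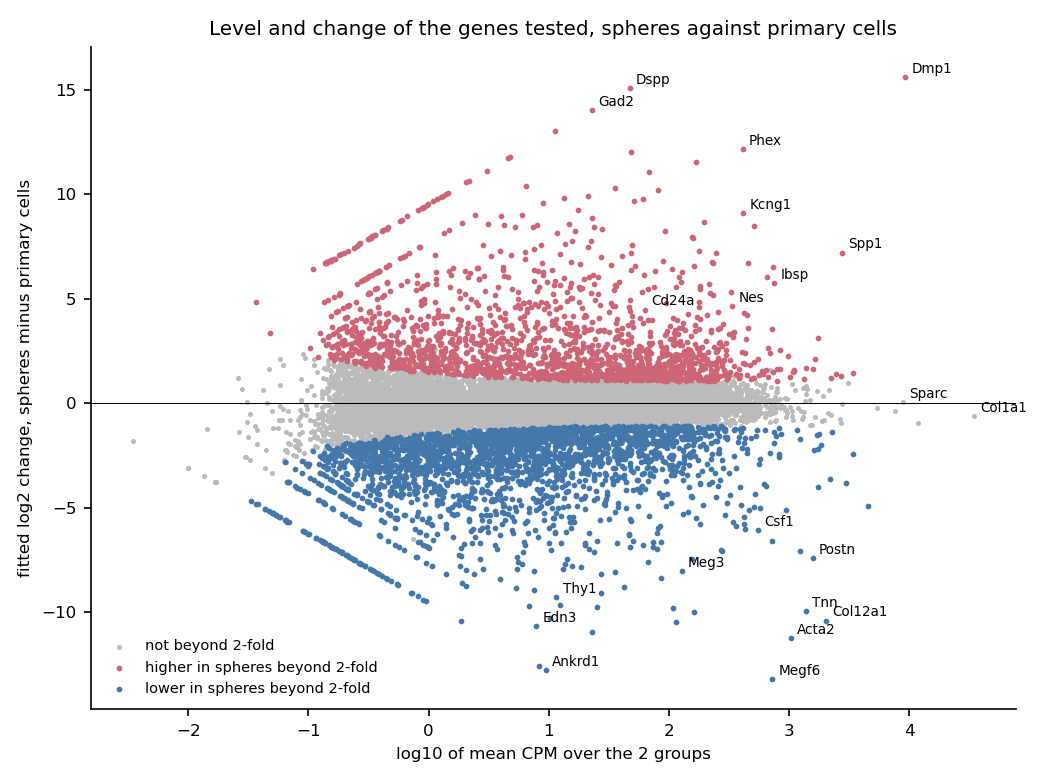
Level of each tested gene (horizontal axis, log10 of the mean CPM over both groups) against the fitted log2 change of spheres relative to primary cells (vertical axis), with a point per gene, colours for the genes called beyond 2-fold in either direction and grey for the others. Coloured points spread to both sides of 0 across the range of levels, with Dmp1 at the upper right as a gene abundant in spheres and near 0 in primary cells, and the slanted lines at the left are genes with few or no counts in a group, whose fitted changes are not bounds.

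Non-coding genes changed too. Of 490 tested lincRNA genes, 101 were higher and 92 lower beyond 2-fold, 20.6% and 18.8%, against 11% and 17.1% of the 13414 tested protein-coding genes. Processed pseudogenes changed beyond 2-fold in 15 and 19 of 529 cases.

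The genes that took the most reads were in part shared between the groups, with Col1a1 first in both. In primary cells the leading genes were Col1a1 (4.44% of counts) and Col1a2 (1.64%), the chains of type I collagen, followed by Col3a1 (0.94%), the type III collagen chain, and Sparc (0.92%), a collagen-binding protein of bone and dentin. The translation factors Eef1a1 and Eef2 and the matrix genes Col5a1, Fn1, Col6a1 and Col12a1 filled the rest of the first 10 places. In spheres Col1a1 still led with 2.9%, but Dmp1, which encodes an acidic matrix phosphoprotein, came next with 1.97%. Spp1, the osteopontin gene (0.59%), Ctsb, a lysosomal cysteine protease (0.54%), and the collagen-degrading metalloproteinases Mmp14 (0.44%) and Mmp2 (0.41%) entered the first 10, and Col3a1, Col5a1, Fn1, Col6a1 and Col12a1 left it. Together the first 10 genes took 11.49 to 11.65% of the counts in primary libraries and 9.87 to 9.99% in sphere libraries.

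The 12 largest increases among genes averaging 10 CPM or more in spheres included the dentin and phosphate genes Dmp1, Dspp and Phex. Dmp1 (GRCm38, chromosome 5, 104202613 to 104214102, plus strand) had 0.335, 0.275 and 0.482 CPM in primary cells and 18761, 18176 and 18133 CPM in spheres. Dspp (chromosome 5, 104170712 to 104180127, plus strand), the gene of dentin sialophosphoprotein, had no count in any primary library and 97.3, 92.3 and 92.6 CPM in spheres, at least 4660-fold higher. Phex (chromosome X, 157162075 to 157415312, minus strand), an endopeptidase of osteocytes and odontoblasts that acts on phosphate balance, had 0.335, 0.0589 and 0.141 CPM in primary cells and 853, 819 and 792 CPM in spheres, 4609.8-fold higher (log2 change 12.17, adjusted p = 1.1e-25). All primary libraries were thus at or near 0 for these genes and all sphere libraries were high and close to each other.

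The other genes of that set belong to several classes. Gad2, a glutamate decarboxylase that makes the transmitter GABA, went from no count in primary cells to 44.5, 44.5 and 47.7 CPM, at least 2250-fold higher. Grik2, a kainate-type glutamate receptor subunit, had 3 counts over the primary libraries and 96.4 ± 2.73 CPM (SD, n = 3) in spheres, a count ratio of 4760 (95% interval 1630 to 23100). Trim54, a muscle RING-finger protein, had 1 count in primary cells and 12.8 ± 0.192 CPM in spheres. Several encode receptors. Gfra1, the co-receptor for glial cell line-derived neurotrophic factor, rose to 159, 159.5 and 168 CPM from 0.126, 0.137 and 0.141 CPM. Acvr1c, a type I receptor for activin-like ligands, rose to 70.7 ± 3.3 CPM from 8 counts over the primary libraries, and Cd300lb, an immunoglobulin-type receptor of myeloid cells, to 26.6 ± 1.11 CPM from 4 counts. Adamtsl2, a secreted glycoprotein of microfibrils, rose to 137 ± 6.85 CPM from 9 counts, Foxe3, a forkhead factor known from the lens, to 42.4 ± 3.13 CPM from 6 counts, and Tuba8, an alpha-tubulin, to 122 ± 2.77 CPM from 20 counts.

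The 12 largest decreases, among genes averaging 10 CPM or more in primary cells, included actin, myosin and collagen genes. Megf6 (chromosome 4, 154170730 to 154275713, plus strand), a secreted protein with many EGF-like repeats, had 1428, 1448 and 1466 CPM in primary cells and 0.18, 0.156 and 0.129 CPM in spheres, 9344-fold lower. Acta2 (chromosome 19, 34241090 to 34255336, minus strand), the smooth muscle actin of myofibroblasts, went from 2059, 2064 and 2082 CPM to 0.977, 0.546 and 1.07 CPM, 2396-fold lower (log2 change -11.23, adjusted p = 2.7e-32). Col12a1 (chromosome 9, 79598991 to 79718831, minus strand), a collagen that binds the surface of collagen I fibrils, went from 4034, 4026 and 3992 CPM to 3.14, 3.27 and 2.59 CPM, 1338-fold lower. The sphere libraries of these genes all lay far below the primary ones.

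Tnn, the tenascin of developing bone and tooth, fell 974-fold from 2756 ± 9.08 to 2.83 ± 0.341 CPM, and Col8a2, a short-chain collagen, fell 1071-fold from 323 ± 10.7 to 0.301 ± 0.15 CPM. Myl9, the regulatory light chain of non-muscle and smooth muscle myosin, fell 938-fold from 218 ± 4.5 to 0.232 ± 0.159 CPM, and Jph2, a junctophilin of muscle, fell 1472-fold from 227 ± 3.51 to 0.154 ± 0.0445 CPM. Ankrd1, a muscle ankyrin repeat protein, had 18.1, 20.6 and 18.2 CPM in primary cells and no count in spheres, at least 914-fold lower. Ackr1, a chemokine-binding receptor, also had no count in spheres, at least 793-fold lower than the 16.5 ± 0.28 CPM of primary cells, 26.4% of its span shared with other genes. Actg2, the enteric smooth muscle actin (20.6 ± 1.27 CPM in primary cells and 2 counts over the sphere libraries), Chodl, a membrane lectin (45.8 ± 1.3 CPM and 3 counts), and Edn3, the endothelin 3 gene (15.7 ± 1.56 CPM and 1 count), complete the set.

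**Figure D2:**
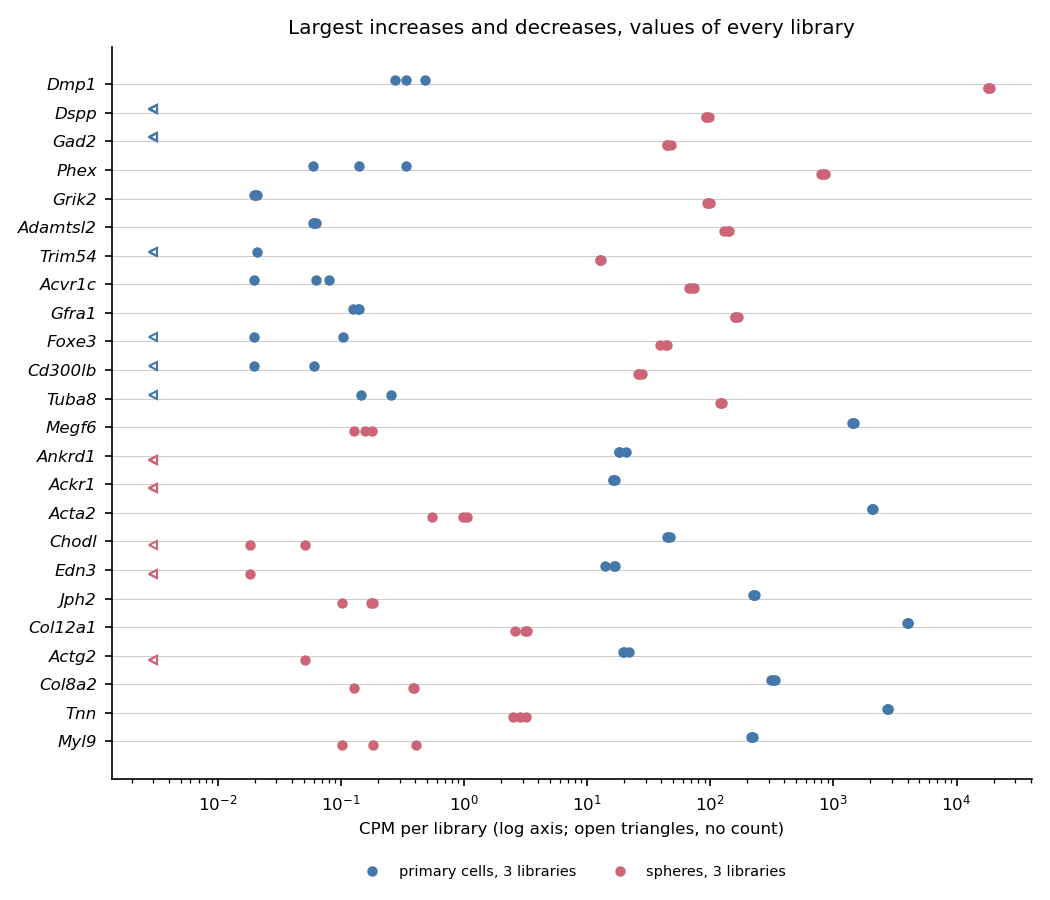
CPM per library (horizontal log axis) of the 12 genes with the largest increases and the 12 with the largest decreases, with the 3 primary and the 3 sphere libraries as points and libraries without a count as open triangles at an arbitrary place at the left edge. The groups are separated for every gene shown, as the rule for choosing them required, and the filled points spread most where a gene has few counts.

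Dentin and bone matrix genes rose in spheres, apart from the type I collagen chains and Mgp. Of 14 tested members, 11 rose and 3 fell (median log2 change 5.79, against -0.02 over all genes tested), with 38.9% of all genes called higher and 40.6% lower. Mepe, a phosphoglycoprotein of osteocytes and odontoblasts, went from 0.126, 0.0392 and 0.0602 to 28.3, 30.7 and 29.7 CPM, 394-fold higher. Sparcl1, a relative of Sparc, rose 147-fold from 3.34 ± 0.229 to 493 ± 5.91 CPM, and Ibsp, bone sialoprotein, rose 54.4-fold to 1483 ± 20.7 CPM. The osteocalcin genes Bglap and Bglap2 rose 85.1-fold and 56.3-fold, but these copies are nearly identical and the split of reads between them is uncertain. Spp1, 21.1% of its span shared with other genes, had 36.1, 36.4 and 37.5 CPM in primary cells and 5454, 5536 and 5343 CPM in spheres. Sparc rose by only 0.07 on the log2 scale (adjusted p = 0.0062, or 0.0552 without primary library 1). The members that fell were Col1a1 (41524 ± 780.2 to 26987 ± 934 CPM), Col1a2 (15382 ± 30.9 to 8001 ± 255 CPM) and Mgp, an inhibitor of mineral deposition (3.56 ± 0.215 to 0.319 ± 0.099 CPM).

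A promoter of Dmp1 is shown because the gene gave the largest fitted increase. Of its listed promoters this is number 2, and promoter 1 does not hold the motif described next. TGTGGT, the core of the motif bound by RUNX factors, was looked for on both strands of the 250 bases before the start of each gene (RefSeq, GRCm38.p6), and lies in 4 of the 9 dentin matrix members that have a promoter in the table (Dmp1, Spp1, Mepe and Bglap) and in 15.9% of 27025 genes. The capitals mark the motif, which reads ACCACA on the printed strand (chr5:104202367-104202616, plus strand, 5′ to 3′).
Dmp1: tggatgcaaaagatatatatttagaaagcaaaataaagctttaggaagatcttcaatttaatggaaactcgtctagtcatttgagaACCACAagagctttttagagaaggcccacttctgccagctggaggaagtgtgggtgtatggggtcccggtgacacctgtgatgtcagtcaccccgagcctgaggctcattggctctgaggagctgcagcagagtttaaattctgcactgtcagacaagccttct

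Mineral and phosphate genes changed with the matrix. Of 16 tested members 13 rose and 3 fell (median log2 change 1.88, or 3.02 over the 8 members overlapping no other entry). Over all genes tested, 38.9% were higher and 40.6% lower. Fam20c, the secretory-pathway kinase that phosphorylates Dmp1, osteopontin and related proteins, had 18.3, 19.7 and 21.2 CPM in primary cells and 1237, 1277 and 1341 CPM in spheres, 65.2-fold higher. Genes known from osteocytes were among them: Sost, the secreted Wnt inhibitor sclerostin, went from no count to 1.9, 2.59 and 2.04 CPM (at least 108-fold higher), and Fgf23, the phosphate-lowering hormone, from 0.0812 ± 0.0917 to 3.52 ± 0.389 CPM. The sphere libraries lay above the primary ones for each, although Sost and Fgf23 stayed at a few CPM. Stc1, a secreted regulator of calcium and phosphate, rose 223-fold to 31.1 ± 1.45 CPM. Enpp1, which makes the mineral inhibitor pyrophosphate, rose 22.5-fold from 0.979 ± 0.265 to 22.1 ± 0.354 CPM, and Ank, which exports it, rose 21.8-fold (43.5% of its span shared with other genes). The vitamin D receptor gene Vdr rose 2.78-fold to 56.5 ± 0.949 CPM. Alpl, the alkaline phosphatase that removes pyrophosphate, went the other way: it had 1395, 1406 and 1427 CPM in primary cells and 232, 239 and 241 CPM in spheres, 5.94-fold lower. The sodium-phosphate carrier gene Slc20a1 (1.24-fold lower, 47.4% of its span shared with other genes) and Fam20a, the partner pseudokinase of Fam20c (1.57-fold lower), fell by less.

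Transcription factors of odontoblasts and osteoblasts split. Of 15 tested, 8 rose, 6 fell and 1 did not pass (median log2 change 0.36, or 0 over the 10 members overlapping no other entry, of which 5 rose and 5 fell). Sp7, osterix, which acts in osteoblast and odontoblast maturation, had 208, 206 and 207 CPM in primary cells and 891, 879 and 906 CPM in spheres, 4.31-fold higher. Dlx3, a homeobox factor whose human mutations affect teeth and bone, rose 4.28-fold from 58.2 ± 1.17 to 249 ± 6.44 CPM. Creb3l1, which acts on collagen secretion in bone, rose 2.98-fold. Both Sp7 and Dlx3 were higher in every sphere library than in any primary one, where 81.2% of all genes tested had separate ranges. Nfic, needed for odontoblast and root formation in mice, rose 1.48-fold. Those that fell were led by Zfp521, a zinc finger partner of early B-cell factors (4.13-fold lower at 31.1 ± 1.22 CPM), and Dlx5 (3.33-fold lower at 24.4 ± 0.914 CPM), and Trps1 did not pass (33.8 ± 1.09 and 35.1 ± 1.82 CPM).

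Patterning factors of the tooth mesenchyme changed in both directions. Of 21 tested, 7 rose, 13 fell and 1 did not pass (median log2 change -0.41, or -0.95 over the 10 members overlapping no other entry). Beyond 2-fold, 3 were higher and 6 lower. Among all genes tested, 38.9% were higher and 40.6% lower, and 11.3% and 16.5% were so beyond 2-fold. The homeobox genes Irx5 and Irx3 rose, Irx5 from 13.4, 13.6 and 14.9 to 329, 338 and 367 CPM (24.7-fold higher) and Irx3 to 106 ± 8.3 CPM (4.65-fold higher, 46.7% of its span shared with other genes). Pax9, a paired-box factor needed for tooth development past the bud stage in mice, went from 192, 196 and 198 to 45.6, 42.7 and 45.8 CPM (4.38-fold lower). Prrx2, a homeobox factor of craniofacial mesenchyme, fell 6.43-fold to 60 ± 3.64 CPM, while its relative Prrx1 rose 1.58-fold to 504 ± 12.4 CPM. The LIM homeobox genes Lhx6 and Lhx8 fell 2.61-fold and 2.03-fold, Barx1 of molar mesenchyme fell 1.33-fold to 316 ± 27.1 CPM, and Msx1 rose 1.16-fold to 193 ± 10.7 CPM.

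Among neural crest and mesenchymal transition factors, 5 of 16 tested rose, 10 fell and 1 did not pass (median log2 change -0.52). Sox11 fell 10.5-fold from 43.2 ± 1.24 to 4.12 ± 0.679 CPM, and the zinc finger repressor Snai2 fell 9.57-fold from 91.6 ± 1.71 to 9.57 ± 0.535 CPM. Twist1, a helix-loop-helix factor of cranial mesenchyme, fell 1.75-fold, and the inhibitory helix-loop-helix gene Id2, a target of BMP signals in many cells, rose 2.6-fold to 110.3 ± 2.01 CPM. Pluripotency factors gave no common rise: of 7 tested, 2 rose and 5 fell (median log2 change -0.55), and 4 of the 13 listed had at most 3 counts. Without primary library 1 or 2 or sphere library 1 or 3, with DESeq2, without the filter on low counts or with a replicate block, 1 of them rose. Esrrb, an orphan nuclear receptor, rose 2.47-fold to 8.82 ± 0.445 CPM, Nanog had 0.548 ± 0.13 CPM in primary cells and no count in spheres, and Klf2 fell 7.09-fold to 16.7 ± 1.69 CPM. None of the 25 listed Hox genes was tested, since each had at most 3 counts, and 11 of them lie inside another entry of the table, where reads were not measured.

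Surface markers used for mesenchymal and dental stem cells moved in both directions, with 9 of 19 tested higher, 9 lower and 1 not passing (median log2 change -0.20, or 0.31 over the 12 members overlapping no other entry). Cd24a (chromosome 10, 43578284 to 43584265, plus strand), the lipid-anchored glycoprotein named in the title of the series, had 5.49, 5.34 and 5.5 CPM in primary cells and 124, 122 and 119 CPM in spheres. Nes, the intermediate filament nestin that marks odontoblasts and neural progenitors, had 25.8, 25.9 and 25.1 CPM and 649.9, 643 and 654 CPM, 25.4-fold higher. Nt5e, the ectonucleotidase CD73, rose 10.2-fold to 618 ± 10.7 CPM and Cd44, the hyaluronan receptor, rose 2.6-fold to 334 ± 13.2 CPM. The groups were separated for each of these genes, as for 81.2% of all genes tested. Thy1, the CD90 gene, went from 24.4, 21.8 and 23.2 CPM to 0.0514, 0 and 0.0552 CPM, a count ratio of 668 (95% interval 286 to 2060). Ly6a, the Sca-1 gene, fell 89.3-fold from 16.1 ± 0.501 to 0.18 ± 0.165 CPM. Pdgfrb, a receptor for platelet-derived growth factor on mesenchyme and pericytes, went from 769.6, 765 and 782 to 26.1, 25.3 and 28.6 CPM, 29-fold lower. CD73 and CD90, which are commonly listed together as mesenchymal stromal markers, therefore changed in opposite directions at the RNA level.

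Of 31 Wnt pathway genes tested, 18 were higher, 12 lower and 1 did not pass (median log2 change 0.70). Of all genes tested, 38.9% were higher and 40.6% lower. Among the ligands, Wnt10b rose 18.1-fold from 5.13 ± 0.339 to 92.8 ± 2.92 CPM, and Wnt11 rose 14.4-fold from 17 ± 0.0507 to 244 ± 25.2 CPM. Wnt5a, a ligand of the non-canonical branch, went from 404, 408 and 404 to 1258, 1248 and 1265 CPM, and Wnt10a, which acts in odontoblasts, rose 1.7-fold to 287 ± 21.5 CPM, whereas Wnt4 fell 5.11-fold. Lgr6, a receptor for R-spondins, went from 15.3, 16.1 and 17.2 to 635, 641 and 658 CPM, 39.8-fold higher. Of the R-spondin genes tested, Rspo2 fell 162-fold from 12 ± 0.383 to 0.0743 ± 0.0969 CPM and Rspo1 fell 90.6-fold to 0.0533 ± 0.0386 CPM. Secreted inhibitors moved in both directions. Sfrp1 went from 547, 554 and 544 to 3.24, 4.15 and 4.76 CPM (135-fold lower) and Dkk3 fell 5.12-fold to 145 ± 2.89 CPM, while Dkk1 rose 59-fold to 14.8 ± 0.787 CPM, Sfrp4 rose 29.7-fold to 21.7 ± 0.159 CPM and Wif1 rose 1.94-fold to 158 ± 2.39 CPM. The feedback target Axin2 rose 1.56-fold to 21 ± 0.743 CPM, and the feedback genes Nkd1 and Nkd2 fell 2.53-fold and 2.96-fold.

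In the BMP and TGF-beta pathway, 15 of 33 genes tested rose, 17 fell and 1 did not pass (median log2 change -0.10, or 0.28 over the 18 members overlapping no other entry, and -0.04 in a fit of the 6 libraries alone). Of the BMP ligands, Bmp6 rose 20.8-fold to 60 ± 3.7 CPM, Bmp3 13.4-fold to 304 ± 5.09 CPM, Bmp7 5-fold to 501 ± 17 CPM and Bmp2 3.83-fold to 348 ± 27.6 CPM, and Bmp4 fell 1.4-fold (25.9% of its span shared with other genes). The receptor genes Bmpr1a, Bmpr2, Acvr1, Tgfbr1 and Tgfbr2 rose between 1.36-fold and 1.98-fold, and the co-receptor gene Tgfbr3 fell 7.49-fold. Bambi, a decoy receptor, went from 44.3, 43.4 and 48 to 779, 864 and 872 CPM, 18.6-fold higher. Secreted antagonists fell. Grem1 went from 173, 171 and 168 to 9.23, 7.76 and 8.09 CPM (20.4-fold lower), Fst, follistatin, fell 18.6-fold to 0.865 ± 0.163 CPM, Nog, noggin, fell 3.74-fold to 2.62 ± 0.327 CPM, and Chrd, chordin, fell 2.37-fold to 9.41 ± 0.737 CPM. Ltbp2 and Ltbp1, genes of the family named latent TGF-beta binding proteins, fell 174-fold and 22.1-fold, whereas Tgfb1 rose 3.46-fold to 543 ± 8.95 CPM.

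FGF pathway genes were higher in 15 of 21 cases and lower in 4, with 2 not passing (median log2 change 1.16). Feedback and transcription factor genes of the pathway were among those that rose. Spry4, a feedback inhibitor, went from 18.2, 19.3 and 18.2 to 322, 326 and 326 CPM (17.4-fold higher), the ETS factors Etv1, Etv5 and Etv4 rose 12.7-fold, 7.45-fold and 6.41-fold, and the ERK phosphatase gene Dusp6 rose 4.14-fold to 288 ± 5.81 CPM. The receptors diverged: Fgfr1 had 819, 800.4 and 829 CPM in primary cells and 1749.8, 1835 and 1898 CPM in spheres, while Fgfr2 (58.2% of its span covered by other genes) fell 10.8-fold and Fgfr3 fell 3.83-fold. Of the ligands, Fgf13, an intracellular relative, rose 11.5-fold to 68 ± 3.09 CPM and Fgf10 fell 25.9-fold to 0.159 ± 0.0677 CPM.

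**Figure D3:**
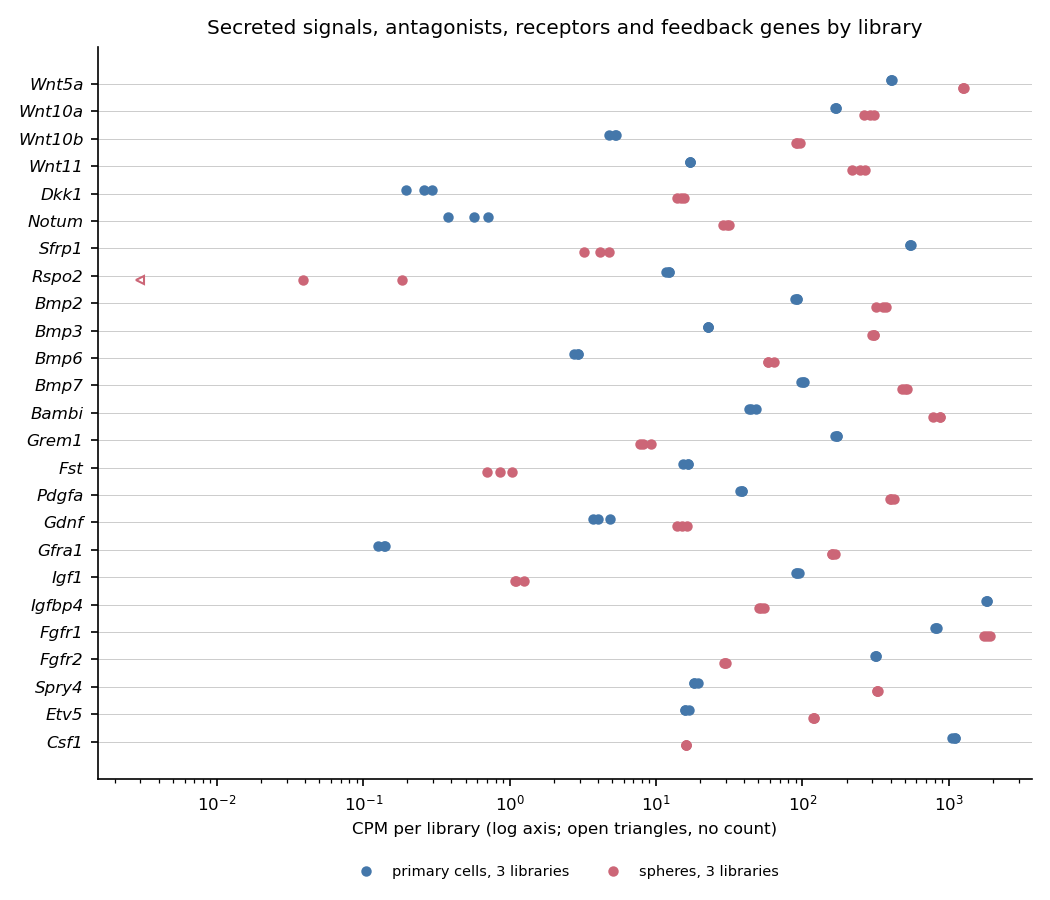
CPM per library (horizontal log axis) of 25 genes of signals, antagonists, receptors and feedback inhibitors, chosen after their values were seen, with the 3 primary and the 3 sphere libraries as points and a library without a count as an open triangle at an arbitrary place at the left edge. Wnt5a, Bmp2, Bambi and Spry4 lie further right in spheres, and Sfrp1, Rspo2, Grem1, Igf1 and Csf1 further left, with no overlap between the groups.

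Hedgehog genes gave 3 higher, 7 lower and 4 not passing of 14 tested (median log2 change -0.70). Over the 4 members overlapping no other entry, 2 rose and 0 fell (median 2.32), so each fall was of a gene that overlaps another entry. The median was -0.49 in a fit of the 6 libraries alone and -0.48 without sphere library 2. The ligand gene Ihh rose 69.6-fold from 0.121 ± 0.0163 to 8.42 ± 1.15 CPM. Hhip, a membrane-bound hedgehog antagonist, fell from 1.66 ± 0.398 CPM to 3 counts over the sphere libraries, a count ratio of 80.2 (95% interval 27.1 to 391). The transcription factors Gli2 and Gli3 fell 3.21-fold and 1.99-fold, and the target Foxf2 fell 3.52-fold. Gli1, a target and mediator of the pathway, was at 0.302 ± 0.0443 and 0.164 ± 0.0926 CPM and did not pass, 79.8% of its span shared with other genes. Notch genes were balanced at 7 higher, 7 lower and 1 not passing of 15 (median log2 change 0.07, or 0.20 over the 8 members overlapping no other entry). Of the ligand genes, Dll1 rose 7.73-fold to 13.3 ± 0.42 CPM, Jag2 4.04-fold to 49.5 ± 2.99 CPM and the atypical ligand Dlk1 61.6-fold to 38.9 ± 3.58 CPM, and Jag1 fell 1.17-fold. Of the receptors, Notch1 fell 3.87-fold and Notch3 fell 11-fold, with 45.6% of the span of Notch3 covered by other genes. Lfng, a sugar transferase that modifies Notch, fell 14.9-fold.

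The insulin-like growth factor genes mostly fell, with 11 of 13 lower and 2 higher (median log2 change -1.38, or -0.74 over the 7 members overlapping no other entry). Igf1, the ligand, went from 90.8, 94.5 and 92.2 to 1.08, 1.11 and 1.25 CPM, 80.6-fold lower. The binding protein gene Igfbp4 went from 1824, 1805 and 1811 to 50.8, 54.8 and 51.9 CPM (34.5-fold lower), and Pappa2, a protease that cleaves IGF binding proteins, fell 903-fold to 0.0554 ± 0.0209 CPM. Primary and sphere libraries were far apart for all of these. Irs2, an adaptor of the insulin and IGF receptors, fell 9.52-fold and Igfbp2 fell 221-fold to 0.118 ± 0.124 CPM. The receptor gene Igf1r fell 1.4-fold and remained at 168 ± 2.09 CPM. The members that rose were Igfbp6, 1.41-fold to 158 ± 12.1 CPM, and Igf2r (0.07 on the log2 scale, 32.5% of its span shared with other genes). The call of Igf2r was lost without primary library 1, 2 or 3 or sphere library 3 (adjusted p = 0.105, 0.0821, 0.0598 and 0.0656) and without the filter on low counts (0.0826), which left 1 member higher.

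Genes of the fibroblast-type matrix mostly fell: of 28 tested, 25 fell, 2 rose and 1 did not pass (median log2 change -3.88). Postn, periostin, a matricellular protein of periodontal ligament and periosteum, had 3140, 3129 and 3093 CPM in primary cells and 18, 19 and 17.9 CPM in spheres, 170.3-fold lower. Thbs1, thrombospondin 1, fell 134-fold from 2449 ± 20.4 to 18.3 ± 2.23 CPM, and Col11a1 fell 96-fold from 1420.1 ± 22.9 to 14.8 ± 0.172 CPM. Col3a1 went from 8905, 8669 and 8958 to 284, 292 and 295 CPM (30.4-fold lower), and Fn1, fibronectin, from 5564, 5546 and 5622 to 401, 397 and 397 CPM (14-fold lower). The collagen VI chains Col6a1, Col6a2 and Col6a3 fell 12.2-fold, 16.1-fold and 43.3-fold, and the fibrillin genes Fbn1 and Fbn2 fell 12.8-fold and 15.4-fold. The type I collagen chains fell far less, Col1a1 1.54-fold and Col1a2 1.92-fold. The exceptions were Sparc, whose call was lost without primary library 1 (adjusted p = 0.0552), and Eln, elastin, which went from 11.6, 10.6 and 10.9 to 89.5, 82.9 and 85.6 CPM (7.78-fold higher).

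Leucine-rich proteoglycans, which bind collagen fibrils, fell in all 6 tested cases (median log2 change -2.97), and 6 of the 12 listed had at most 3 counts. Fmod, fibromodulin, fell 119.7-fold from 147 ± 2.01 to 1.23 ± 0.609 CPM, Lum, lumican, fell 8.73-fold, and Bgn, biglycan, fell 1.45-fold to 1816 ± 88.4 CPM. Collagen-processing enzymes divided into 6 higher, 11 lower and 1 not passing of 18 (median log2 change -0.66). Adamts2, which removes the procollagen N-propeptide, had 332, 337 and 336 CPM in primary cells and 1586, 1631 and 1695 CPM in spheres, 4.88-fold higher. Bmp1, which removes the C-propeptide, and its enhancer Pcolce rose 2.11-fold and 1.8-fold. Adamts2 was higher in every sphere library than in any primary one, while the crosslinking enzyme gene Lox went from 2642, 2659 and 2641 to 561, 568 and 573 CPM (4.67-fold lower). Plod2, a lysyl hydroxylase of collagen telopeptides, rose 2.44-fold, and P4ha3, a prolyl hydroxylase subunit, fell 177-fold to 0.159 ± 0.0147 CPM.

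Of 20 basement membrane genes tested, 18 were lower and 2 higher (median log2 change -1.85). Nid2, nidogen 2, fell 73.3-fold from 158 ± 5.89 to 2.15 ± 0.132 CPM, Lama2, a laminin chain of muscle and mesenchyme, fell 29.5-fold to 12.6 ± 0.381 CPM, and the collagen IV chains Col4a1 and Col4a2 fell 2.6-fold and 2.93-fold. Lama1 rose 2-fold to 164 ± 0.833 CPM and Col15a1 rose 4.32-fold to 17.2 ± 0.775 CPM. The laminin chain genes Lama3 and Lamb3, known from epithelia, also fell, Lama3 17.6-fold and Lamb3 20.9-fold (44.9% of its span shared with other genes). Epithelial keratins fell beside them: Krt14 had 112, 111 and 116 CPM in primary cells and 7.23, 7.62 and 6.89 CPM in spheres, and Krt5 had 57.6 ± 2.07 and 2.4 ± 0.107 CPM. Over the whole list of epithelial markers, 11 of 15 tested fell, 3 rose and 1 did not pass, and the summed level was 243 to 246 CPM in primary libraries and 582 to 594 CPM in sphere libraries, of which Ambn, given with the markers, made up most in spheres. The part of epithelial cells in the fall of these laminin genes was not tested.

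Matrix proteases and their inhibitors gave 8 higher and 11 lower of 19 (median log2 change -0.75). Klk4, a serine protease of enamel maturation that is also made by odontoblasts, went from 0.251, 0.0589 and 0.0602 to 109, 99.2 and 100.3 CPM, 832-fold higher. Mmp16, a membrane-type metalloproteinase, rose 46.8-fold from 4.8 ± 0.61 to 225 ± 5.45 CPM. Mmp2 and its activator Mmp14, both abundant, rose 2.51-fold and 1.94-fold, and Ctsk, the collagenolytic cathepsin, rose 6.19-fold to 1139 ± 12.8 CPM. The aggrecanase-type genes Adamts4 and Adamts1 fell 15.4-fold and 14.6-fold, Adamts12 fell 17.6-fold, and the collagenase gene Mmp13 fell 8.29-fold to 14.5 ± 0.936 CPM.

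The contractile actin genes all fell: 21 of 21 tested were lower, each beyond 2-fold (median log2 change -2.66, or -5.31 over the 11 members overlapping no other entry), where 16.5% of all genes were lower beyond 2-fold. Tpm2, a tropomyosin that stabilizes actin filaments, had 259, 242 and 264 CPM in primary cells and 7.02, 6.55 and 5.87 CPM in spheres, 39.4-fold lower. Cnn2, a calponin, went from 992, 1000 and 1003 to 50.5, 49.2 and 50 CPM (20-fold lower), and the non-muscle myosin heavy chain gene Myh10 fell 22.7-fold from 296 ± 1.74 to 13.1 ± 0.0701 CPM. The smaller falls were those of the general cytoskeletal genes Flna, filamin A (2.82-fold lower at 893 ± 3.57 CPM), Actn4 (2.78-fold, 33.1% of its span shared with other genes) and Cnn3 (2.5-fold). The smooth muscle markers Myh11 and Lmod1 fell 82.2-fold and 121-fold, from 7.77 ± 0.608 and 20.7 ± 0.539 CPM.

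The promoter of Myl9 is printed as an example of a CArG box, the site of serum response factor (CC, then 6 bases of A or T, then GG). An exact match of the box lies within 250 bases before the start of 3 of the 18 contractile genes that have a promoter in the table (Cnn2, Myl9 and Vcl), and of 1.62% of all 27025 genes. A box that departs from this pattern in any base was not counted. The Acta2 promoter has no exact match, but holds CCCTATATGG and CCTTGTTTGG, which each depart from it in a single base. Capitals mark the box (chr2:156775214-156775463, plus strand, 5′ to 3′).
Myl9: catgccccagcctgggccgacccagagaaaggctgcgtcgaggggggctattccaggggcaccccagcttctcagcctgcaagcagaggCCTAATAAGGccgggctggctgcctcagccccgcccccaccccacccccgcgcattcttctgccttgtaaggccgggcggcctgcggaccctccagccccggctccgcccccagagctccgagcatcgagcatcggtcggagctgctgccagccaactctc

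Of the YAP and TEAD genes and targets, 14 of 17 fell and 3 rose (median log2 change -1.52, or -2.38 over the 8 members overlapping no other entry). Amotl2, an angiomotin-like target, went from 848, 844 and 863 to 13.2, 14.1 and 12.6 CPM (64-fold lower), and Cyr61, a secreted matricellular target, from 905, 908 and 901 to 27.4, 26.2 and 26.6 CPM (33.8-fold lower). Axl, a receptor tyrosine kinase, fell 8.78-fold, and the factors Tead1, Tead2 and Tead4 fell 4.77-fold, 3.7-fold and 3.86-fold. Ctgf, another widely used target, rose 1.39-fold to 122 ± 2.44 CPM (adjusted p = 1.3e-11), 51.4% of its span shared with other genes. The gene of the coactivator itself, Yap1, rose 1.29-fold to 203 ± 8.47 CPM.

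Adhesion genes rose in 8, fell in 15 and did not pass in 1 of 24 cases (median log2 change -0.71, or -0.23 over the 12 members overlapping no other entry, of which 5 rose and 6 fell). The collagen receptor subunits moved apart: Itga2 rose from 0.524, 0.785 and 0.643 to 102, 94.5 and 93.3 CPM (148-fold higher), whereas Itga11 fell 78.1-fold and Itga1 fell 9.5-fold. Itga8, a receptor subunit for nephronectin and fibronectin, fell 325-fold from 172 ± 5.76 to 0.53 ± 0.046 CPM, and Itga5, the fibronectin receptor chain, fell 2.01-fold. Gja1, connexin 43 of gap junctions, had 251, 245 and 248 CPM in primary cells and 1505, 1423 and 1408 CPM in spheres, 5.83-fold higher. Cdh11, the cadherin of mesenchyme and osteoblasts, rose 1.37-fold to 1594 ± 18.3 CPM and Cdh2, N-cadherin, fell 1.41-fold. The epithelial cadherin Cdh1 (5.51 ± 0.322 to 0.596 ± 0.252 CPM) and Cdh3 (2.35 ± 0.104 to 0.149 ± 0.096 CPM) fell, as did the keratins given above. Not all listed epithelial markers fell: of 15 tested, 11 fell, 3 rose and 1 did not pass. Epcam, an adhesion gene of that list, was among those that rose. The part of epithelial cells in these changes was not tested.

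Of the immediate early genes, which many stimuli induce within minutes, 6 of 19 rose, 1 of them beyond 2-fold, 9 fell, each beyond 2-fold, and 4 did not pass (median log2 change -0.09, or -1.26 over the 15 members overlapping no other entry). Their summed level was 4046 to 4141 CPM in primary libraries and 1352 to 1445 CPM in sphere libraries. Fosb went from 716, 695 and 714 to 11.8, 11.2 and 13.3 CPM (58.7-fold lower), Fos from 746, 717 and 734 to 46.1, 44.4 and 48.5 CPM (15.8-fold lower), and Dusp1, a MAP kinase phosphatase, fell 40.9-fold to 14.1 ± 1.54 CPM. Egr3 moved against them, from 3.42, 3.57 and 3.19 to 313, 322 and 324 CPM (94.3-fold higher), while its relative Egr1 fell 2.4-fold to 170.2 ± 5.23 CPM.

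Mitosis genes fell in all 23 tested cases (median log2 change -2.51). Cenpe, a kinetochore motor, went from 20.9, 20.3 and 20.5 to 2.44, 2.79 and 2.33 CPM (8.15-fold lower), and Ube2c, the ubiquitin-conjugating enzyme of the anaphase-promoting complex, fell 7.8-fold from 19.4 ± 1.31 to 2.49 ± 0.353 CPM. Mad2l1, a spindle checkpoint gene, fell least, by 1.57-fold to 7.63 ± 0.786 CPM. Cell cycle transcripts thus stayed detectable in every sphere library. DNA replication genes fell in 19 of 21 cases, rose in 1 and did not pass in 1 (median log2 change -1.42). Prim1, a primase subunit, fell 8.33-fold to 0.799 ± 0.267 CPM, Uhrf1, a partner of the maintenance DNA methyltransferase, fell 7.74-fold to 4.77 ± 0.912 CPM, and the helicase subunit genes Mcm6 and Mcm5 fell 5.98-fold and 4.52-fold. Pcna, the sliding clamp used in replication and repair, rose 1.38-fold to 86.9 ± 1.82 CPM.

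Ccnb2, the cyclin B2 gene, went from 15.6, 18.4 and 18.4 to 3.16, 3.18 and 3.31 CPM (5.43-fold lower). Its promoter holds the letters of both motifs known from genes of mitosis. Both were looked for on either strand of the 250 bases before the gene start. CCAAT, the NF-Y site, lies in 16 of the 19 mitosis genes with a promoter and in 37.5% of all 27025 genes. TTTGAA, the letters of the cell cycle homology region, lies in 7 of 19 and in 18.3%. In Ccnb2 the TTTGAA starts 167 bases before the gene start, and the CCAAT matches at 87, 54 and 21. Whether this TTTGAA acts as such a region was not tested. Capitals mark TTTGAA and each CCAAT (chr9:70421555-70421804, minus strand, 5′ to 3′).
Ccnb2: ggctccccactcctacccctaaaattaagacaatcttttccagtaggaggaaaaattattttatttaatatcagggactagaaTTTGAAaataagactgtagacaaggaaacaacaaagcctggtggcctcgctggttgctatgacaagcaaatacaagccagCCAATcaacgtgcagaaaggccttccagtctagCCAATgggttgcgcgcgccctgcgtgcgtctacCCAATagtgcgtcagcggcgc

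Genes that restrain or meter the cell cycle were mixed, with 8 higher, 14 lower and 1 not passing of 23 (median log2 change -0.37). Cdkn1a, the p21 inhibitor, had 387, 386 and 383 CPM in primary cells and 1218, 1185 and 1204 CPM in spheres, 3.12-fold higher. Rb1, the retinoblastoma gene, rose 3.44-fold to 22 ± 1.65 CPM (20.8% of its span shared with other genes), and Cdkn2a rose 2.15-fold to 19.9 ± 0.157 CPM. Btg2, an antiproliferative gene, fell 12.8-fold from 54.5 ± 1.05 to 4.25 ± 0.375 CPM, Cdkn1c, the p57 inhibitor, fell 7.96-fold with 32.9% of its span covered, and Cdkn1b, the p27 inhibitor, fell 2.2-fold. Cyclin D1, Ccnd1, fell 2.31-fold to 118 ± 3.52 CPM and cyclin D3, Ccnd3, rose 1.6-fold to 211 ± 14.8 CPM.

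Genes of sterol synthesis fell almost without exception: 21 of 22 tested were lower and 1 was higher (median log2 change -2.15). Pmvk, a mevalonate pathway kinase, went from 43.4, 43.9 and 45.7 to 3.24, 3.76 and 3.33 CPM, 12.9-fold lower. Dhcr7, the last enzyme on the way to cholesterol, fell 7.03-fold from 103 ± 0.247 to 14.6 ± 0.339 CPM, and Idi1, an isoprenoid isomerase, fell 6.39-fold to 6.84 ± 0.312 CPM. Insig1, the sterol sensor partner, fell 3.56-fold.

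Lipid-handling genes rose in 12, fell in 7 and did not pass in 1 of 20 cases (median log2 change 0.72, or 2.42 over the 11 members overlapping no other entry). The cholesterol exporter genes Abca1 and Abcg1 rose: Abca1 had 68.2, 70.8 and 68 CPM in primary cells and 862, 834 and 839 CPM in spheres (12.2-fold higher), and Abcg1 rose 43.9-fold from 2.97 ± 0.509 to 130.5 ± 3.52 CPM. Apoe, which accepts the exported lipid, rose 4.87-fold to 309.8 ± 9.31 CPM. Angptl4, a secreted lipase inhibitor, rose 132-fold from 0.619 ± 0.107 to 81.5 ± 3.13 CPM, Plin2, a lipid droplet coat protein, rose 5.36-fold to 726 ± 9.86 CPM, and the fatty acid transporter gene Cd36 rose 40.1-fold to 10.8 ± 1.43 CPM. Elovl6, a fatty acid elongase, fell 5.13-fold, and Pparg, the fat cell nuclear receptor, fell 3.02-fold to 6.19 ± 0.14 CPM.

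Lysosome and autophagy genes were higher in 24 of 25 cases and lower in 1 (median log2 change 0.95), where 38.9% of all genes were higher. Tfeb, a transcription factor of lysosomal genes, went from 13.5, 12.7 and 13.2 to 53.4, 59.2 and 62.2 CPM (4.45-fold higher). Ctsb had 1823, 1824 and 1824 CPM in primary cells and 4977, 5039 and 4997 CPM in spheres (2.74-fold higher). Ctsd rose 3.97-fold (55.7% of its span shared with other genes), the proton pump subunit gene Atp6v1a rose 3.63-fold, and the autophagy receptor gene Sqstm1 rose 2.42-fold to 1452 ± 51.2 CPM. The member that fell was Ctsh, from 10.2 ± 0.503 to 8.71 ± 0.963 CPM (log2 change -0.24), a call lost without sphere library 2 (adjusted p = 0.076), which left 0 members lower.

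Antioxidant genes divided into 15 higher and 4 lower of 19 (median log2 change 0.85, or 0.33 over the 12 members overlapping no other entry). Nqo1, a quinone reductase, went from 19.6, 20.8 and 18.5 to 235, 238 and 239 CPM (12.1-fold higher), and Gsr, glutathione reductase, from 41.1, 40.7 and 40.3 to 492, 486 and 486 CPM (12-fold higher). Hmox1, heme oxygenase 1, and Txnrd1, thioredoxin reductase, rose 2.95-fold and 2.85-fold, with 22.9% of the span of Txnrd1 covered by other genes. Gclc, the catalytic subunit for glutathione synthesis, fell 2.03-fold, and Gsta4 fell 5.67-fold to 1.78 ± 0.233 CPM.

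Respiratory chain genes rose in 20 of 25 cases, with 5 not passing and 0 lower, but by little (median log2 change 0.26, none beyond 2-fold in the test). Cyc1, cytochrome c1, rose from 88.3 ± 1.94 to 118 ± 8.63 CPM, and Sdha from 199 ± 4.23 to 253 ± 2.62 CPM. Glycolysis and hypoxia genes rose in 13, fell in 11 and did not pass in 1 of 25 (median log2 change 0.18, or -0.05 over the 12 members overlapping no other entry). The hexokinase gene Hk2 rose 2.86-fold to 112 ± 3.25 CPM and Ldha, lactate dehydrogenase, rose 1.45-fold, while the hypoxia-induced genes Vegfa and Slc2a1, the glucose transporter, fell 1.6-fold and 1.56-fold. Car9, another hypoxia target, fell from 2.42 ± 0.16 to 0.0991 ± 0.0364 CPM, 26.3% of its span shared with other genes. The list thus had no common direction.

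Ribosomal protein genes fell in all 29 tested cases but by little (median log2 change -0.39, none beyond 2-fold in the test), as with Rpl10a, 1.87-fold lower, and Rps7, 1.1-fold lower. Genes of the integrated stress response fell in 13, rose in 5 and did not pass in 1 of 19 (median log2 change -0.36). Its factor Atf4 fell 1.28-fold to 325 ± 6.08 CPM, Trib3 fell 2.21-fold, and Ddit3, the CHOP gene, rose 1.86-fold to 174 ± 4.16 CPM. Folding genes of the endoplasmic reticulum rose in 6, fell in 10 and did not pass in 2 of 18 (median log2 change -0.19), with Dnajb9, a cochaperone, 3.67-fold higher and Hspa5, the chaperone BiP, 1.56-fold lower at 740.3 ± 16.8 CPM.

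Interferon response genes fell in 25 of 26 cases, none rose and 1 did not pass (median log2 change -3.75). Isg15, a ubiquitin-like modifier, went from 21.1, 22.4 and 21.2 to 0.309, 0.487 and 0.588 CPM (46.7-fold lower). Ifit3, which binds to the antiviral IFIT complex, fell 67.5-fold from 4.41 ± 0.338 to 0.0653 ± 0.0423 CPM, and Oasl2, an oligoadenylate synthetase-like gene, fell 50.9-fold from 29.6 ± 0.228 to 0.582 ± 0.145 CPM. Irf7, a transcription factor that amplifies the response, fell 19.4-fold from 26.5 ± 0.66 to 1.36 ± 0.293 CPM. Sphere libraries lay below all primary libraries for these genes, whose levels were moderate in primary cells. The signal transducer gene Stat2 fell 4.6-fold to 21 ± 0.835 CPM. The member that did not pass was Irf1, at 24.2 ± 0.938 and 24.6 ± 1.49 CPM.

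The promoter of Isg15 is printed because it holds the repeated GAAANNGAAA of the interferon-stimulated response element. This motif lies on either strand within 250 bases before the start of 9 of the 19 interferon genes that have a promoter in the table, and of 3.46% of all 27025 genes. Capitals mark overlapping matches (chr4:156200819-156201068, minus strand, 5′ to 3′).
Isg15: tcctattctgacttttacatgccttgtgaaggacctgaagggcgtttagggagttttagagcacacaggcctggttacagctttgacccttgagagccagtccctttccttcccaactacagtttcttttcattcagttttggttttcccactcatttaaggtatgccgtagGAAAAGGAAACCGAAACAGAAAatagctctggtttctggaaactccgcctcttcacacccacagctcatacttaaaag
TCACNCCAC, a form of the sterol regulatory element, lies in 1 of the 15 sterol synthesis genes with a promoter (Hmgcs1) and in 1.22% of all genes. A match is a description of these letters, and bears on no factor.

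Antigen presentation genes fell in all 8 tested cases (median log2 change -1.98, or -0.60 over the 2 members overlapping no other entry). Tap1, the peptide transporter, fell 6.2-fold from 53.5 ± 2.4 to 8.63 ± 0.608 CPM, and the class I gene H2-K1 fell 1.92-fold to 136 ± 2.95 CPM. Class I genes are close relatives of each other, so their split of reads is uncertain. Cytokine and chemokine genes gave 2 higher, 12 lower and 2 not passing of 16 (median log2 change -1.96). Csf1, the macrophage growth factor, went from 1094, 1055 and 1095 to 16.1, 16 and 16 CPM (67.5-fold lower), and Cxcl12, a chemokine of stromal cells, fell 10.4-fold to 10.5 ± 0.825 CPM. Tnfrsf11b, osteoprotegerin, which blocks osteoclast formation, had 120.4, 123 and 122 CPM in primary cells and 323, 323 and 319 CPM in spheres (2.64-fold higher), and its ligand gene Tnfsf11 had 39 counts over the primary libraries and 1 over the sphere libraries.

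**Figure D4:**
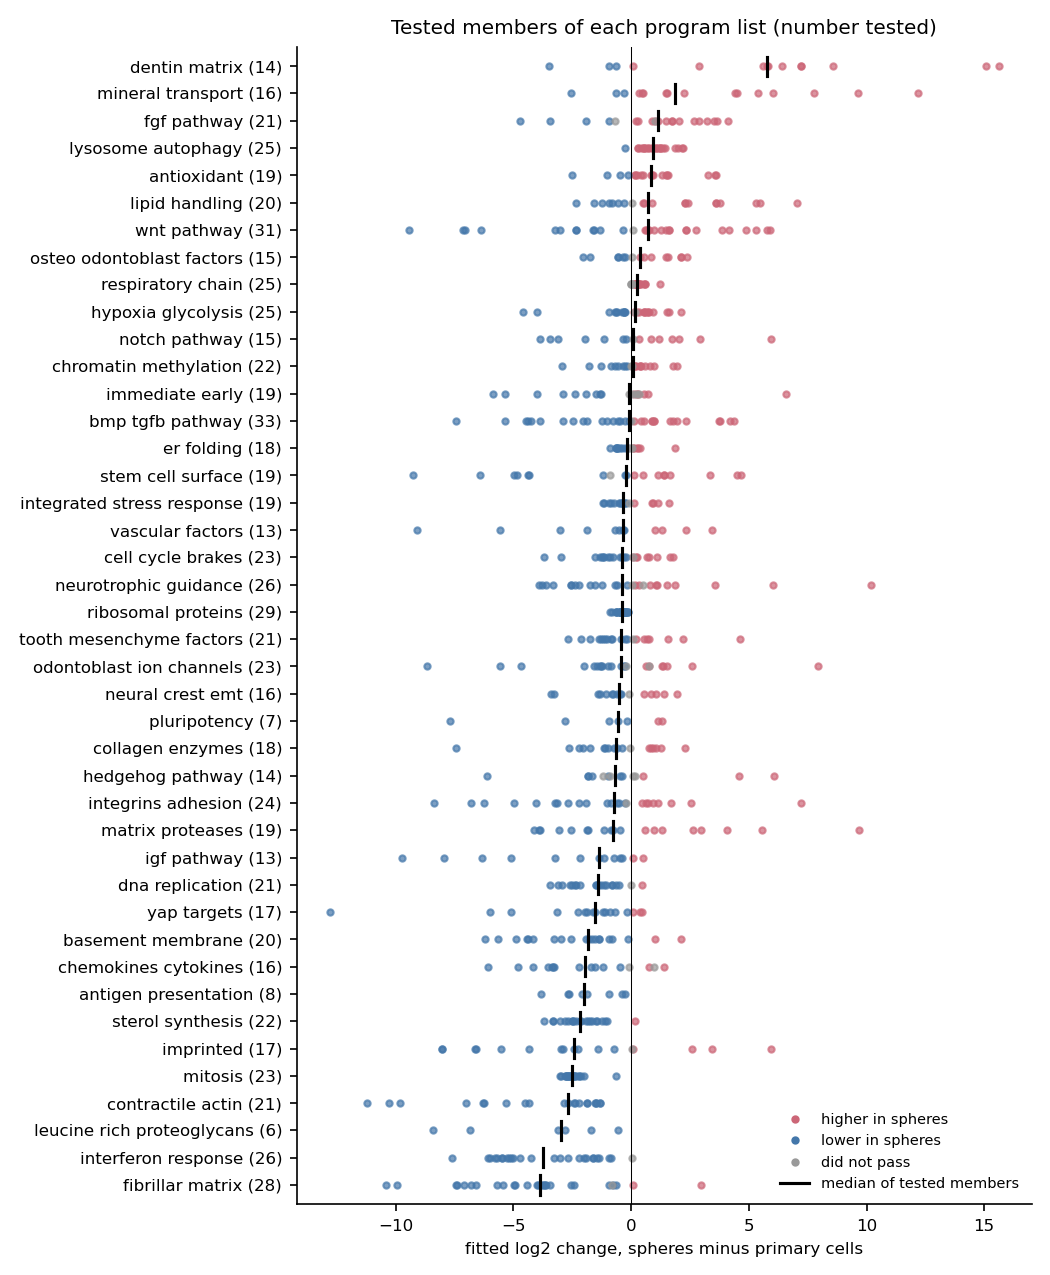
Fitted log2 change of spheres relative to primary cells (horizontal axis) for the tested members of each gene list, with a point per gene coloured by its call, a black bar at the median of each list and the number tested in parentheses. The medians of the dentin matrix and mineral lists lie to the right of 0, and those of the fibroblast-type matrix, interferon, contractile actin, mitosis and sterol synthesis lists to the left, while many lists hold genes on both sides.

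Vascular growth factor genes divided into 4 higher and 9 lower of 13 (median log2 change -0.36, or -0.68 over the 5 members overlapping no other entry). The platelet-derived growth factor genes Pdgfa and Pdgfc rose, Pdgfa from 38.5, 38.5 and 37.3 to 398, 406 and 420.1 CPM (10.7-fold higher) and Pdgfc 4.99-fold to 325 ± 4.54 CPM, while Vegfd fell 47-fold from 93.7 ± 2.45 to 1.99 ± 0.406 CPM. Nerve growth and guidance genes rose in 10, fell in 14 and did not pass in 2 of 26 (median log2 change -0.39, or -1.28 over the 10 members overlapping no other entry). Gdnf, the ligand that binds Gfra1, rose 3.62-fold to 15.1 ± 1.08 CPM. The semaphorins diverged, with Sema3d and Sema3e 65.1-fold and 12-fold higher and Sema3f 15.1-fold lower.

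Ion channel genes studied in odontoblasts rose in 7, fell in 14 and did not pass in 2 of 23 cases (median log2 change -0.43, or -0.87 over the 11 members overlapping no other entry, and -0.79 without sphere library 1). Kcnma1, the large-conductance calcium-activated potassium channel, went from 1.15, 1.26 and 1.28 to 310.4, 315 and 299 CPM (250.3-fold higher). Trpm7, a magnesium and calcium channel with a kinase domain, rose 5.95-fold to 509 ± 17.4 CPM. Cacna1h, a T-type calcium channel, went from 51.2, 53.3 and 53 to 1.29, 1.13 and 0.938 CPM (47-fold lower), and Scn2a, a sodium channel, fell 26.9-fold to 0.141 ± 0.0337 CPM.

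Imprinted genes fell in 12, rose in 4 and did not pass in 1 of 17 cases (median log2 change -2.43, or -1.42 over the 7 members overlapping no other entry). H19, a long non-coding RNA, went from 72.5, 70.7 and 67.8 to 0.206, 0.312 and 0.257 CPM (272-fold lower), and Meg3 and Rian, non-coding RNAs of one imprinted cluster on chromosome 12, fell 265-fold and 95.3-fold, Meg3 from 254 ± 2.49 to 0.956 ± 0.195 CPM. Dlk1, a protein-coding gene of the same cluster, rose as given with the Notch genes. Mest fell 99.7-fold to 1.69 ± 0.381 CPM, Grb10 fell 7.48-fold, and Plagl1, a zinc finger factor, went from 60.1, 59.6 and 59.8 to 665, 634 and 623 CPM (10.7-fold higher). Chromatin and DNA methylation genes were balanced at 11 higher, 9 lower and 2 not passing of 22 (median log2 change 0.07, or 0.02 over the 5 members overlapping no other entry). Hmga2, an architectural chromatin protein, rose 3.81-fold to 329.9 ± 6.9 CPM, 20.5% of its span shared with other genes, Dnmt3a rose 1.5-fold, and the maintenance DNA methyltransferase gene Dnmt1 fell 1.62-fold to 48.4 ± 2.09 CPM.

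The labelled tissue was checked with markers of dental mesenchyme. All 12 were detected in both groups, 9 lower and 3 higher in spheres (median log2 change -0.52). Vim, vimentin, fell 2.57-fold to 1277 ± 6.55 CPM. Of the epithelial markers, Ambn, ameloblastin, which is also known from dental mesenchyme and early odontoblasts, went from 38.2, 37.2 and 37 to 517, 529.8 and 524 CPM (14-fold higher), and Epcam rose 14.9-fold from 2.88 ± 0.366 to 42.9 ± 1.79 CPM, whereas Cldn4, a tight junction gene, fell 4.57-fold to 1.69 ± 0.184 CPM. Of the 8 tested chondrocyte markers 3 rose and 5 fell. Col11a2 had 2.31, 2.85 and 3.33 CPM in primary cells and 982, 999 and 1047 CPM in spheres (357-fold higher), but the defining marker Col2a1 was at 1.98 ± 0.197 and 0.0428 ± 0.0214 CPM, and Acan had 35 and 7 counts over 3 libraries. Osteoclast markers rose in 4 and fell in 1 of 6, with Atp6v0d2, a proton pump subunit, 219-fold higher at 45 ± 2.19 CPM, while Mmp9, a defining protease of these cells, fell to 0.37 ± 0.141 CPM.

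Macrophage and leukocyte markers rose in 10, fell in 3 and did not pass in 1 of 14 (median log2 change 0.88), at a summed 34.2 to 37.1 CPM in primary libraries and 59.4 to 61.7 CPM in sphere libraries. Lyz2, lysozyme, gave 12.4 ± 0.562 and 27.4 ± 0.611 CPM of this, and Ptprc, CD45, 0.196 ± 0.0554 and 0.792 ± 0.243 CPM. These markers rose beside the lysosome genes and Cd300lb, and their part in those results was not tested. Endothelial markers gave 2 higher, 4 lower and 2 not passing of 8, with Cdh5 at 0.296 ± 0.109 CPM in primary cells and no count in spheres and Kdr 32.9-fold lower at 0.402 ± 0.0668 CPM. Pericyte markers gave 2 higher, 4 lower and 1 not passing of 7, and Rgs5 was at 0.732 ± 0.26 and 0.212 ± 0.0377 CPM. Glial and neuronal markers gave 2, 2 and 2 of 6: the synaptic gene Snap25 rose to 15.7, 13.5 and 15 CPM from 0.0406 ± 0.0352 CPM, and Mbp, myelin basic protein, fell to 1.63 ± 0.127 CPM. Skeletal muscle markers gave 1 higher and 2 lower of 3, with Des, desmin, at 0.451 ± 0.0109 and 0.0975 ± 0.0735 CPM, beside the falls of the muscle-type genes above. Of the erythroid markers 1 of 3 rose and 2 did not pass, with the alpha-globin gene Hba-a1, which shares reads with a near-identical copy, at 0.84 ± 0.189 CPM in spheres. Of the 2 tested adipocyte markers, Fabp4 rose 12.2-fold to 3.88 ± 0.513 CPM and Pparg fell.

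**Figure D5:**
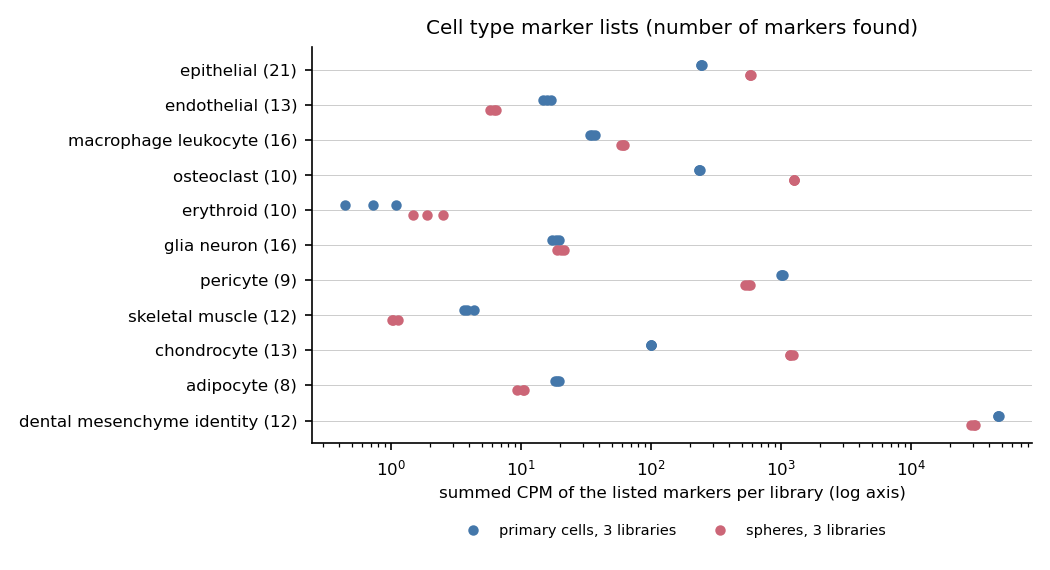
Summed CPM per library (log axis) of the listed markers of each cell type, with the 3 primary and the 3 sphere libraries as points. The dental mesenchyme sums are mostly Col1a1, a gene that is not specific to this tissue, the chondrocyte, osteoclast and epithelial sums are higher in spheres through Col11a2, Ctsk and Ambn, and the endothelial sums lie between 5.83 and 17.1 CPM.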

How the data were processed

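RNA-seq libraries of dental papilla cells were analysed from 1 table of whole-number counts per gene that the authors deposited without normalization. Per the submitters' processing notes, fastp 0.20.0, HISAT2 2.1.0 and featureCounts 1.6.0 were used, with genome build GRCm38. The annotation release and the strand setting are not stated in these sources, so sense and antisense reads may not be told apart. Of 53353 entries, 45.2% overlap another. The lengths in the table span whole genes, so that reads in introns may have been counted, and of 1215 protein-coding genes wholly inside another entry 1213 had at most 3 counts over the 6 libraries and were taken as not measured. All 37 mitochondrial entries are at 0.

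Groups were taken from the sample titles. Genes were tested with edgeR 4.0.16 in R 4.3.3: filterByExpr with a minimum count of 10, TMM scaling, and 1 robust quasi-likelihood fit of the 3 groups' means in the 9 libraries, and the contrast spheres minus primary cells. P-values are two-sided and Benjamini-Hochberg adjusted over 15675 genes, with a threshold of 0.05, and glmTreat gave the calls beyond 2-fold. The common biological coefficient of variation came to 4% over the 9 libraries. Taken alone, the primary libraries gave 2.5% and the sphere libraries 4.4%, whereas the fit shares its estimate of the spread between the groups. Pearson correlations of log-CPM (prior count 2) between libraries of a group were 0.9924 to 0.995 across genes (which are not independent), and the chi-square of counts, 2.53 to 6.24 divided by its degrees of freedom, exceeded sampling noise for every pair. The script was tested on simulated counts.

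The 54 lists, with 1023 genes of which 872 were tested, and the rule for named genes were chosen with earlier results of these data known. Named genes are Cd24a, the 12 largest increases and decreases (10 CPM or more on average in the higher group, groups not overlapping, no clone or predicted-gene name), the 10 genes with most counts per group, and from each list those with the largest changes, its defining markers and its exceptions; names beyond this rule were added for their role in the pathway, and some genes that the rule takes are not reported here. Intervals of count ratios are exact binomial ones at 95% and cover counting error only. A fold against a group at 0 uses 3 counts over that group as a lower bound. Promoters are the 250 bases before the gene start in the RefSeq table (GRCm38.p6). A gene with several listed starts was counted once, if any of its promoters held the motif. Alternatives were other scalings, no filter, the 6 libraries alone, a replicate block, each library left out, DESeq2 1.42.0 and genes that overlap no other entry.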

Additional observations from a re-analysis of the deposited data

How the results depend on the processing

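Of 48 recomputed counts of higher and lower genes, 46 stayed within 1.5 times the reported ones, and no gene was called in the opposite direction in any refit. Counts beyond 2-fold were not run for DESeq2 or for genes that overlap no other entry. DESeq2 gave 6057 higher and 6183 lower genes, and scaling to total counts gave 6154 and 6308. The exceptions were the counts over genes that overlap no other entry, 2971 higher and 3303 lower of 7949, a set that holds fewer genes by construction. Leaving out 1 library at a time gave 5953 to 6082 higher and 6199 to 6333 lower genes, and 1756 to 1782 and 2539 to 2611 beyond 2-fold. Where it leaves 2 libraries in a group, these share their spread with the other groups.

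A fit of the 6 libraries alone tested 15318 genes and called 6110 higher and 6287 lower. With the replicate number as a block in a fit of the 6 libraries, 6046 genes were higher and 6242 lower. Deviations from the group means correlated at 0.002, 0.011 and 0.018 for libraries with the same number, and at -0.019 to 0.008 for the other pairs. Correlations this near 0 cannot show whether libraries with the same number shared an animal or a culture.

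Of 2064 recomputed counts and medians of lists, 155 moved by more than the limits set for them. Of these, 102 were over members that overlap no other entry. Some of the moved medians over such members are given beside the printed ones. Medians not given there include those of interferon response (-3.75 to -4.86), FGF (1.16 to 1.73), leucine-rich proteoglycans (-2.97 to -2.42) and fibroblast-type matrix (-3.88 to -4.21). Of 3948 recomputed changes of named genes, 7 lost their call (Igf2r, Sparc and Ctsh). Irf1, which did not pass, changed sign without primary replicate 2 (-0.016) and sphere replicate 2 (-0.026), in a range of -0.026 to 0.059 with a library left out; the cause was not tested. Genes wholly inside others and the unknown strand limit single genes, and genes under about 10 counts rest on few reads.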

Other observations

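Among genes outside the lists, several with large changes were picked after their values were seen. Kcng1, a modifier subunit of voltage-gated potassium channels, had 1.61, 1.37 and 1.55 CPM in primary cells and 792, 831 and 851 CPM in spheres (546-fold higher), and Kcnn4, a calcium-activated potassium channel, rose 36.7-fold to 450 ± 37.2 CPM. Ano1, a calcium-activated chloride channel, rose 43.9-fold to 351 ± 0.965 CPM, beside Kcnma1 of the ion channel list. Sgms2, a sphingomyelin synthase, rose 106-fold to 893 ± 19.7 CPM. The sphere libraries were far above the primary ones for each of these genes. Of genes that fell, Sgk1, a serum- and glucocorticoid-regulated kinase, went from 1119, 1121 and 1095 to 35, 35 and 34.1 CPM (32-fold lower). Ccdc80, a matrix protein, fell 128-fold from 539.6 ± 11.2 to 4.21 ± 0.462 CPM, and Crabp1, a retinoic acid binding protein of neural crest mesenchyme, fell 54.5-fold from 358 ± 9 to 6.56 ± 0.851 CPM. Gas6, the ligand of the receptor Axl, fell 27.1-fold to 21.5 ± 0.499 CPM, so that both genes of this pair were lower in spheres. Fscn1, an actin-bundling protein, fell 20.6-fold to 29.6 ± 0.568 CPM.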
